A study of Homo sapiens with 12 samples.

Results

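Human mitochondrial DNA encodes 7 subunits of respiratory complex I, and their mRNAs are ND1, ND2, ND3, ND4L, ND4, ND5 and ND6. They were picked by name from a table of read counts for 43769 genes, which made 7 of 43769, and all 7 had enough counts to be tested, as did 15828 genes in all. The libraries were made from SK-N-DZ, an MYCN-amplified neuroblastoma cell line, carrying a doxycycline-inducible short hairpin RNA against ARID1A, a subunit of the SWI/SNF chromatin remodelling complex. The study asked how loss of ARID1A alters the response to interferon gamma (IFN), and it has 4 groups of 3 libraries. Control libraries had neither agent and are labelled WT. Dox libraries had doxycycline, a tetracycline antibiotic that switches on the hairpin, for 4 days and are labelled shARID1A. IFN libraries are labelled WT and had interferon gamma for 24 hours, and Dox IFN libraries are labelled shARID1A and had both. The hairpin lines were clones grown under puromycin, and no library had doxycycline without the hairpin, so effects of the drug and of the hairpin cannot be told apart. The sources do not say that the 3 replicates of a group were separate cultures, so p-values measure only the spread between these libraries.

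Complex I is the NADH dehydrogenase of the inner mitochondrial membrane, which passes electrons from NADH to ubiquinone and pumps protons. Its matrix arm is built from nuclear gene products, while the mitochondrially encoded subunits form the core of the membrane arm. Mitochondrial DNA is transcribed from both strands into long RNAs that are cut into mRNAs, rRNAs and tRNAs. ND6 is the sole mRNA of the transcript called light-strand here, and ND1 to ND5 belong to the heavy-strand transcript, from which ND4L and ND4 remain joined in 1 RNA.

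On GRCh38 the heavy-strand members lie on the plus strand of chromosome M, at 3307 to 4262 (ND1), 4470 to 5511 (ND2), 10059 to 10404 (ND3), 10470 to 10766 (ND4L), 10760 to 12137 (ND4) and 12337 to 14148 (ND5). ND6 lies on the minus strand at 14149 to 14673, with 0 bases between it and ND5. Each is a single exon of the GENCODE release 29 annotation. The first 30 bases of each mRNA, from the GENCODE transcripts, are shown because they make the strand visible, with every G in capitals.
ND1: atacccatGGccaacctcctactcctcatt
ND2: attaatcccctGGcccaacccGtcatctac
ND3: ataaacttcGccttaattttaataatcaac
ND4L: atGcccctcatttacataaatattatacta
ND4: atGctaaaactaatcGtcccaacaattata
ND5: ataaccatGcacactactataaccacccta
ND6: atGatGtatGctttGtttctGttGaGtGtG
ND6 held 9 G in these 30 bases, and the heavy-strand members held 1 to 3. Over its whole length ND6 was 35.6% G and 7.05% C, a GC skew, (G − C)/(G + C), of 0.67. The heavy-strand members had skews of -0.558 (ND2) to -0.438 (ND4L). The end of ND4L and the start of ND4 share 7 bases, in capitals here, and how reads over this stretch were assigned is not given in the sources used here.
ND4L end: gtacataacctaaacctactccaATGCTAA
ND4 start: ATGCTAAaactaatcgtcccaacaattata
The strand setting of the counting is not given in the sources used here, and both strands of this genome are transcribed, so reads from a member and from RNA antisense to it cannot be told apart.

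Libraries held 16469832 to 21790869 counts, and 3 counts, the limit of detection used, came to 0.135 to 0.187 CPM, a count divided by the size of its library. Of the neuroblastoma markers, MYCN stood at 772 to 1495 CPM and GATA3 at 525 to 803 CPM in the 12 libraries, while TH, the enzyme that starts catecholamine synthesis, was variable. TH was at 47.3, 3.13 and 74.7 CPM in Control and 1.33, 7.03 and 0.694 CPM in Dox, groups that overlapped (log2 fold change -3.78, adjusted p = 0.219 by edgeR and 0.0456 by DESeq2). With IFN it was at 21.5, 2.18 and 58.9 CPM, and with both agents at 1.9, 3.07 and 0.765 CPM (-3.85, adjusted p = 0.268 by edgeR and 0.0508 by DESeq2), and its part in the results below was not tested. The 10 markers of other cell types summed to 4.86 to 9.73 CPM in Control, 7.23 to 11.9 in Dox, 7.23 to 27.3 in IFN and 13 to 14.4 in Dox IFN, with CD3E and PECAM1 at 0 in every library. ARID1A, the target of the hairpin, was at 197, 186 and 165 CPM in Control and at 197, 159 and 158 CPM in Dox, groups that overlapped (log2 fold change -0.09, SE 0.11, adjusted p = 0.788). It was at 192, 202 and 193 CPM in IFN and at 151, 133 and 148 CPM in Dox IFN, which did not overlap but missed the threshold (-0.44, SE 0.11, adjusted p = 0.115). The libraries labelled Dox are therefore named by label, not by a loss of ARID1A mRNA measured in these counts. The study itself describes loss of ARID1A in its SK-N-DZ hairpin line by qPCR and by Western blot, which are not part of these counts. Dox IFN replicate 1 stood apart from replicates 2 and 3 in its mitochondrial mRNAs, as described for each member. Values without it are given for the members' fold changes, the interaction and the ND6 ratio. The other mitochondrial RNAs, the nuclear genes and the within-library shares are given only with it.

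The 7 mRNAs together took 1.23% to 1.78% of the counts in Control libraries and 0.333% to 0.444% in Dox libraries. In IFN libraries they took 1.07% to 1.55%, and in Dox IFN libraries 0.287% to 0.851%, where 0.851% was Dox IFN replicate 1. Neither doxycycline group overlapped its reference group. Per kilobase of mRNA, the mean levels in Control ran from ND4 at 4339 ± 964 CPM per kilobase (SD, n = 3 here and below) through ND4L (3548 ± 844), ND3 (2395 ± 638), ND2 (1926 ± 523), ND1 (1832 ± 485) and ND6 (1563 ± 107) to ND5 (1239 ± 171). Neighbours in this order lay within their spread of each other, except that the lowest ND6 library, 1490, was above the highest ND5 library, 1412. In Dox the order began with ND2 (891 ± 172) and ended with ND5 (305 ± 45.1) and ND6 (252 ± 16.5), and ND4 (766 ± 125), ND3 (715 ± 157) and ND4L (702 ± 96.3) came close together. The plot of per-kilobase levels shows all 12 libraries.

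**Figure D1:**
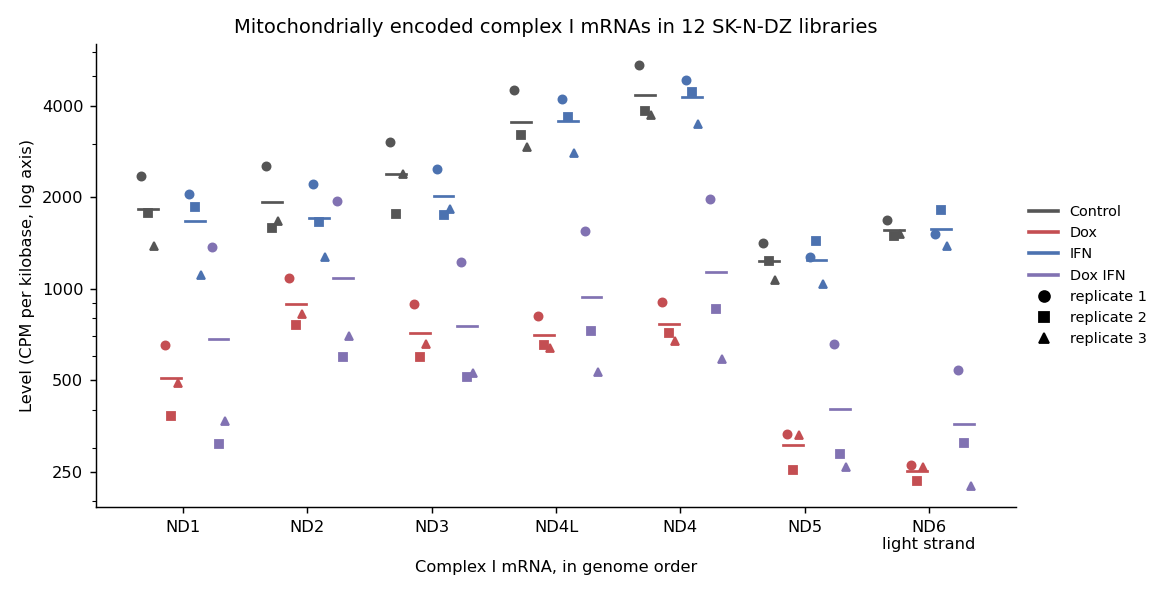
Level of each mitochondrially encoded complex I mRNA in CPM per kilobase (log axis) in each library, with colours for the 4 groups, marker shapes for the replicate numbers and short lines for group means. ND4 falls from a Control mean of 4339 to a Dox mean of 766, and Dox IFN replicate 1 lies above the other Dox IFN libraries for every mRNA.

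The first question was how the libraries labelled Dox differed from Control. All 7 complex I mRNAs were lower in Dox, 5 of them (ND3, ND4L, ND4, ND5 and ND6) by edgeR's quasi-likelihood test with Benjamini-Hochberg adjustment over all tested genes. By the same rule 0.733% of all tested genes were lower. The members' median log2 fold change was -2.02, against -0.001 over all tested genes. For all 7 the Dox libraries lay below every Control library, as they did for 9.10% of all tested genes.

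Among the small subunits of the membrane arm, ND6 was at 885, 782 and 795 CPM in Control and 138, 122 and 136 CPM in Dox. Both groups were tight, with coefficients of variation of 6.82% and 6.55%, and far apart. ND6 fell by 2.63 on the log2 scale (SE 0.27, adjusted p = 0.00224), to 16.1% of its Control level, and ranked 5 of 15828 by p-value. ND4L was at 1340, 952 and 870 CPM in Control and 241, 194 and 190 CPM in Dox. It fell by 2.34 (SE 0.35, adjusted p = 0.0139), with Control replicate 1 the highest library. ND3 stood at 1050, 609 and 827 CPM against 309, 206 and 227 CPM, and it fell by 1.74 (SE 0.34, adjusted p = 0.039).

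ND2, ND4 and ND5 are the antiporter-like subunits thought to carry the proton channels. ND4, the most abundant member, was at 7511, 5291 and 5135 CPM in Control and at 1251, 987 and 927 CPM in Dox. The groups stood well apart, and ND4 fell by 2.50 (SE 0.38, adjusted p = 0.0139), to 17.6% of Control. ND5, the longest member, was at 2558, 2237 and 1938 CPM against 603, 459 and 598 CPM, and it fell by 2.02 (SE 0.32, adjusted p = 0.0152). ND2 showed the smallest difference of the members. Its levels were 2633, 1647 and 1740 CPM in Control and 1132, 794 and 859 CPM in Dox, a log2 fold change of -1.11 (SE 0.41) that missed the threshold (adjusted p = 0.238).

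ND1, which helps to form the ubiquinone-binding site, was at 2242, 1692 and 1320 CPM in Control and at 624, 363 and 468 CPM in Dox. The groups did not overlap, but the spread within them was wide, and the log2 fold change of -1.85 (SE 0.52) missed the threshold (adjusted p = 0.127). The replicate numbers paired the libraries, since same-numbered libraries of different groups deviated together. With the replicate number as a block, ND1 (-1.84, adjusted p = 0.00603) and ND2 (-1.09, adjusted p = 0.00955) were lower as well, which made 7 of 7, where 7.67% of all tested genes were lower. DESeq2 called 6 of 7 lower, all but ND2 (adjusted p = 0.0646), where it called 2.71% of all tested genes lower.

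The calls changed when a library was left out. Without Control replicate 1, 2 or 3 the number of members lower in Dox was 3, 3 and 4, and without Dox replicate 1, 2 or 3 it was 1, 1 and 2. Of all tested genes, 0.228% to 0.401% were lower in these 6 fits, also fewer than the 0.733% with all libraries. The fold changes moved less: ND6 ranged from -2.67 to -2.58 and passed in all 6 of these fits (adjusted p 0.00994 to 0.0171), and ND4 ranged from -2.65 to -2.32 (adjusted p 0.0448 to 0.0608). ND4L (adjusted p 0.0421 to 0.0601) and ND5 (0.048 to 0.0669) also stood on both sides of the threshold, and ND3 (0.0582 to 0.132) passed in none.

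The same comparison in cells that also had IFN set Dox IFN against IFN. All 7 mRNAs again had negative log2 fold changes, and 3 (ND4L, ND5 and ND6) were lower by the test, where 0.569% of all tested genes were lower. The median over the members was -1.64, against -0.007 over all tested genes. For 5 of the 7 the groups did not overlap, as for 8.41% of all tested genes in this direction. ND1 and ND2 overlapped through Dox IFN replicate 1.

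ND6 was at 798, 954 and 725 CPM in IFN and at 284, 163 and 118 CPM in Dox IFN. Even the highest Dox IFN library, replicate 1, was far below the lowest IFN library, and ND6 fell by 2.13 (SE 0.26, adjusted p = 0.00497). ND4L, at 1253, 1088 and 833 CPM against 462, 216 and 158 CPM, fell by 1.93 (SE 0.35, adjusted p = 0.0354). ND3 was at 856, 604 and 634 CPM in IFN and 423, 177 and 183 CPM in Dox IFN, a log2 fold change of -1.42 (SE 0.34) that missed the threshold (adjusted p = 0.104). The groups of both small heavy-strand mRNAs stayed apart, with Dox IFN replicate 1 the nearest to IFN.

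ND5 was at 2308, 2598 and 1876 CPM in IFN and at 1191, 518 and 471 CPM in Dox IFN, and it fell by 1.64 (SE 0.31, adjusted p = 0.0457). ND4 was at 6722, 6142 and 4809 CPM against 2722, 1178 and 809 CPM, and its log2 fold change of -1.91 (SE 0.38) lay just outside the threshold (adjusted p = 0.0523). Of the pump subunits, ND2 again differed least. It was at 2306, 1726 and 1330 CPM in IFN and at 2029, 623 and 730 CPM in Dox IFN (-0.66, SE 0.4, adjusted p = 0.577), so that replicate 1 of Dox IFN lay inside the IFN range. For ND1 too that library lay inside the IFN range, with levels of 1968, 1776 and 1058 CPM against 1312, 294 and 351 CPM (-1.29, SE 0.51, adjusted p = 0.332).

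Several of these calls turned on Dox IFN replicate 1. Without it, 6 of 7 members were lower, where 0.308% of all tested genes were, with ND1 at -2.31 (adjusted p = 0.0257), ND3 at -1.96 (0.0198), ND4 at -2.57 (0.00454) and ND6 at -2.56 (0.000931), and ND2 at -1.40 (0.0938) as the exception. Without IFN replicate 1, 2 or 3, or without Dox IFN replicate 2 or 3, 1 member was lower in each fit, where 0.191% to 0.371% of all tested genes were, and it was ND6, whose adjusted p ran to 0.0289 at most. With the replicate block all 7 were lower, where 6.62% of all tested genes were, among them ND1 (-1.52, adjusted p = 0.0181), ND2 (-0.80, 0.0398), ND3 (-1.51, 0.000507) and ND4 (-2.04, 0.000695). DESeq2 called 5 of 7 lower (all but ND1 and ND2), where it called 2.50% of all tested genes lower. Fitted on the 6 IFN and Dox IFN libraries alone, 0 of 7 passed (ND6 at -2.12, adjusted p = 0.114), as did 0.00% of all 15103 genes tested there. RNA from a whole culture cannot tell a lower level in every cell from fewer cells holding these mRNAs.

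**Figure D2:**
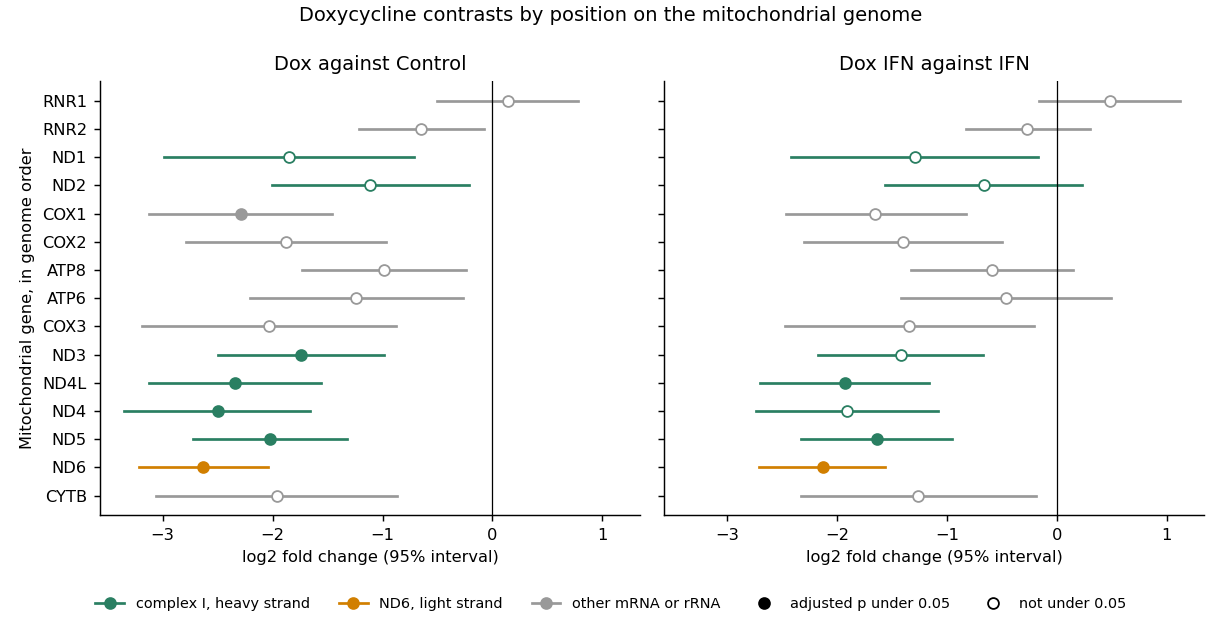
Log2 fold change (horizontal axis) with its 95% interval for the 13 mitochondrial mRNAs and 2 rRNAs in genome order, for Dox against Control and for Dox IFN against IFN, with filled points where the adjusted p was under 0.05. ND6, on the light strand, has the lowest value in both panels (-2.63 and -2.13), and among the members ND2 lies nearest to 0.

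IFN itself was compared in both backgrounds. For IFN against Control the members' log2 fold changes ran from -0.25 (ND3) to 0.01 (ND4L, ND5 and ND6). By edgeR 0 of 7 were called, where 2.21% of all tested genes were, and by DESeq2 0, where 3.53% were. At an unadjusted p under 0.05 there were 0, where 1267 of all 15828 genes were. These shares are too small to make 0 of 7 informative. The groups overlapped for all 7, and the share of all tested genes that did so is not given here. The 95% interval was -0.54 to 0.56 for ND6 and -1.23 to 0.97 for ND1, so changes of a size inside these intervals could not be detected. For Dox IFN against Dox the log2 fold changes ran from 0.08 (ND3) to 0.57 (ND4), again with 0 of 7 called by edgeR, by DESeq2 or at an unadjusted p under 0.05. The shares of all tested genes were 1.72%, 2.79% and 6.24%, also too small to make 0 of 7 informative. The higher fold changes in Dox IFN against Dox came with Dox IFN replicate 1: without it ND1 stood at -0.59 and ND4 at -0.09, and ND6 at 0.08.

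Whether the doxycycline difference itself differed with IFN was tested as an interaction. Its log2 values ran from 0.32 (ND3, SE 0.47) to 0.59 (ND4, SE 0.51), and 0 of 7 were called by edgeR, by DESeq2 or at an unadjusted p under 0.05. Of all tested genes 0.00% were called by edgeR, which is 0 genes with 99 at an unadjusted p under 0.05, and DESeq2 called 2. For ND6 the 95% interval was -0.28 to 1.28, and without Dox IFN replicate 1 its value was 0.08.

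The make-up of the heavy-strand counts was compared within each library, which needs no scaling between libraries. As a share of the counts of the 12 heavy-strand mRNAs, ND4 made up 14.3% to 15.3% in Control and 9.82% to 11.4% in Dox, and 14.9% to 16.1% in IFN and 10.8% to 10.9% in Dox IFN. ND4L moved the same way, from 2.58% to 2.67% in Control down to 1.93% to 2.34% in Dox, and from 2.72% to 2.79% in IFN down to 1.83% to 2.13% in Dox IFN. ND2 moved the other way, from 4.46% to 5.24% up to 7.91% to 10.6%, and with IFN from 4.32% to 5.09% up to 5.79% to 9.84%. For these 3 mRNAs the doxycycline libraries did not overlap their reference group in either comparison. The shift was not limited to complex I members. Shares of ATP8 and ATP6 also rose and that of COX1 fell, without overlap in either comparison. ATP8 made up 0.115% to 0.13% in Control and 0.212% to 0.274% in Dox, and COX1 25.2% to 28.9% and 21.3% to 21.7%. The shares of ND1, ND3 and ND5 overlapped in both, as did those of COX2, COX3 and CYTB. Because the shares of a library sum to a fixed total, a rise in some requires a fall in others. These shares were looked at after the fold changes were seen and carry no test.

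**Figure D3:**
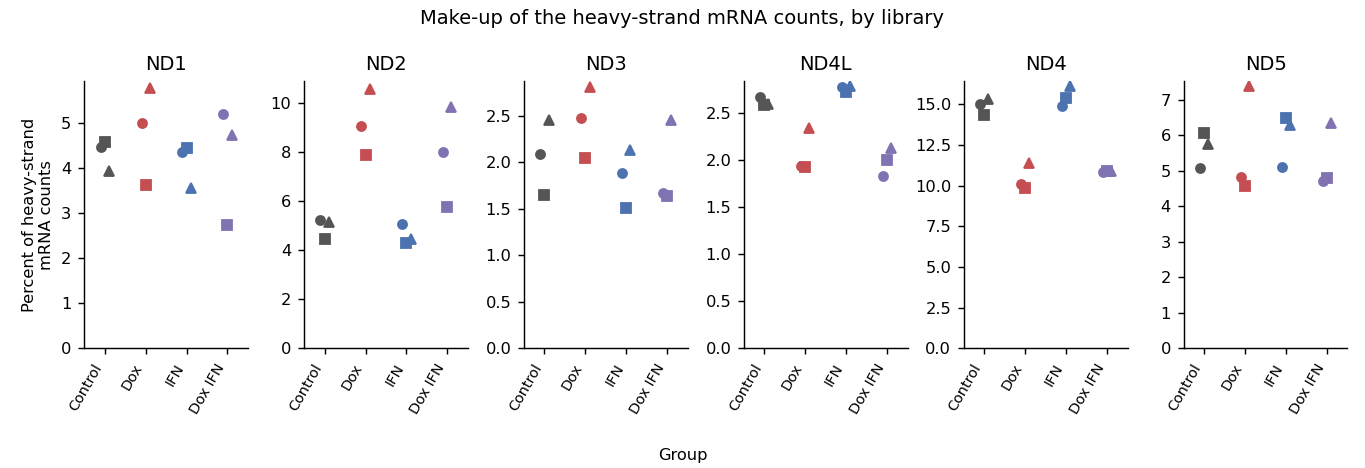
Share of each heavy-strand complex I mRNA in the summed counts of the 12 heavy-strand mRNAs, in percent on axes that start at 0, with 1 point per library, coloured by group and shaped by replicate number. ND2 takes a larger share in the doxycycline groups, and ND4L and ND4 a smaller one, than in Control and IFN.

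ND4L and ND4, which lie on 1 RNA, kept nearly the same ratio. The ND4L count was 16.9% to 18% of the ND4 count in Control, 17.3% to 18.6% in IFN and 17% to 19.6% in Dox IFN. In Dox it was 19.3% to 20.5%, above every Control library. Over the 12 libraries, Pearson's r between the log2 levels of ND4L and ND4 was 0.999, the highest of any pair of members, and the lowest was 0.83 between ND2 and ND6. These correlations describe libraries that share their treatment and are given without a test.

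ND6 was compared with the heavy-strand mRNAs within each library, as the log2 ratio of its count to the summed count of the 12 heavy-strand mRNAs. The ratio was -5.83, -5.56 and -5.40 in Control and -6.49, -6.36 and -5.89 in Dox. It was -5.83, -5.39 and -5.36 in IFN and -6.48, -6.04 and -5.98 in Dox IFN. ND6 thus made up 1.76% to 2.36% of the heavy-strand sum in Control and 1.11% to 1.68% in Dox. The doxycycline libraries lay below their reference group in both comparisons, though by a narrow gap between Dox replicate 3 (-5.89) and Control replicate 1 (-5.83), and the ratio was lower in 6 of 6 same-numbered pairs.

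The mean ratio differed by -0.65 between Dox and Control and by -0.64 between Dox IFN and IFN. Each gave p = 0.1 in a two-sided exact permutation test over libraries, the smallest p that 3 against 3 allows. Permuting the doxycycline labels within the libraries with and without IFN gave p = 0.005 for the mean difference of -0.65, the smallest that 400 arrangements allow in this exact permutation test. Exchanging labels only within same-numbered pairs gave an exact permutation p of 0.0312, the smallest of 64 arrangements. Against the 6 heavy-strand complex I mRNAs alone the mean difference was -0.58 (exact permutation p = 0.01), and against ND5, its neighbour on the genome, it was -0.54 (exact permutation p = 0.005). Without Dox IFN replicate 1 the difference against all heavy-strand mRNAs was -0.57 (exact permutation p = 0.015 within IFN strata). Apart from the values of 0.1, these p-values take the libraries with and without IFN as independent. Same-numbered libraries deviated together across IFN too, and Control and IFN replicate 1 both had a ratio of -5.83. The p-values may therefore be too small, and a test with only the replicate numbers as units was not run.

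The result depended on the mRNA that ND6 was set against. Against each of the 12 heavy-strand mRNAs alone, of which 11 were added after the data were seen, the mean difference was negative for all 12 and ran from -1.60 (ATP8) to -0.14 (ND4). In the exact permutation test within IFN strata, 10 of 12 had a Benjamini-Hochberg adjusted p under 0.05, and the exceptions were ND4L (-0.24, adjusted p = 0.0927) and ND4 (-0.14, adjusted p = 0.275). These p-values carry the same limit, since they too take the strata as independent. The ND6 count was 11.8%, 14.8% and 15.5% of the ND4 count in Control and 11.1%, 12.4% and 14.7% in Dox. It was 11.9%, 15.5% and 15.1% in IFN and 10.4%, 13.9% and 14.5% in Dox IFN. Against ND4, the most abundant member, the groups thus overlapped in both comparisons, and a lower ND6 was not shown. The groups overlapped for 6 of the 12 single mRNAs in Dox and for 6 in Dox IFN.

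**Figure D4:**
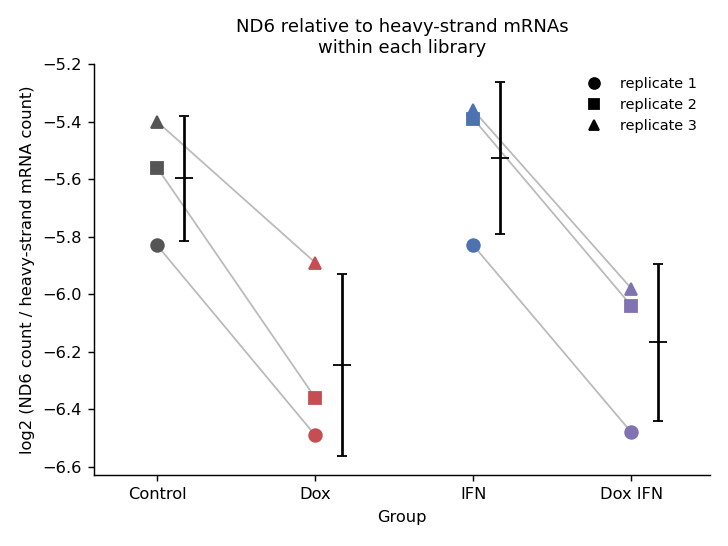
Log2 ratio of the ND6 count to the summed count of the 12 heavy-strand mRNAs in each library, by group, with grey lines joining same-numbered libraries and bars showing the group mean and SD (n = 3). All 6 lines slope down from Control to Dox and from IFN to Dox IFN, by a mean of -0.65 on the log2 scale, and replicate 1 is the lowest library of every group.

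The 6 other mitochondrial mRNAs also had negative log2 fold changes, with medians of -1.92 in Dox against Control and -1.30 in Dox IFN against IFN. Of these, COX1, a catalytic subunit of cytochrome c oxidase, was lower in Dox by the test (-2.29, SE 0.38, adjusted p = 0.0183), and the other 5 missed the threshold, although all 6 had an unadjusted p under 0.05 and DESeq2 called 5 of 6 lower. With IFN 0 of 6 passed in edgeR, 4 had an unadjusted p under 0.05 and DESeq2 called 2. Dox IFN replicate 1 was again the highest of its group, as for ATP6 (3198, 1226 and 882 CPM). Fits without it are not given for these 6 mRNAs. With the replicate block 6 of 6 were lower in Dox and 5 of 6 in Dox IFN, where 7.67% and 6.62% of all tested genes were. Of the 2 rRNAs, which share the members' heavy strand, 0 were called by edgeR or DESeq2 in either comparison, with 1 in Dox and 0 in Dox IFN at an unadjusted p under 0.05. RNR1, the small rRNA, had a log2 fold change of 0.14 (SE 0.29, adjusted p = 0.894) in Dox and 0.48 (SE 0.29, adjusted p = 0.577) in Dox IFN, and RNR2, the large rRNA, had -0.65 (SE 0.26, adjusted p = 0.283) and -0.27 (SE 0.26, adjusted p = 0.766).

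Within each library RNR1, which lies upstream of ND1 on the same transcript, had 0.545 to 0.731 counts per ND1 count in Control and 1 to 3.71 in Dox. With IFN it had 0.49 to 0.811 counts per ND1 count, and 1 to 5.66 with doxycycline and IFN, the lowest of each doxycycline group being replicate 1. The doxycycline libraries did not overlap their reference group in either comparison. How rRNA was removed or mRNA selected before sequencing is not given in the sources used here, and its part in the rRNA counts was not tested.

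Of the mitochondrial tRNAs, 5 of 8 on the light strand and 10 of 14 on the heavy strand had enough counts to be tested. On the light strand, shared with ND6, 4 were lower in Dox and 3 in Dox IFN, where 0.733% and 0.569% of all tested genes were. Their medians were -1.74 and -1.66. TRNN, the asparagine tRNA, had 1218, 1388 and 1011 counts in Control and 350, 387 and 439 in Dox (-1.74, SE 0.23, adjusted p = 0.00765). It had 956, 1315 and 1400 counts in IFN and 340, 288 and 541 in Dox IFN (-1.76, SE 0.23, adjusted p = 0.00672). In neither comparison did the groups overlap.

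On the heavy strand, where 6 members lie, 0 of 10 tRNAs were called in either comparison by edgeR. At an unadjusted p under 0.05 there were 5 in Dox and 3 in Dox IFN, and DESeq2 called 1 lower and 1 higher, respectively. The medians were 0.69 and 1.04, with 6 of 10 above 0 in Dox and 8 of 10 in Dox IFN. Several of the 10 had few counts, near the limit of detection in some libraries, so these medians are uncertain. TRNL2 had 2, 11 and 3 counts in Control and 8, 1 and 25 in Dox. TRNT had 31, 24 and 16 in Control and 9, 0 and 2 in Dox. On the light strand TRNE was as sparse, with 16, 8 and 10 in Control and 1, 7 and 4 in Dox. TRNL1, a leucine tRNA just upstream of ND1, and TRNT, the threonine tRNA, were below 0 with groups that did not overlap in Dox (-1.66, SE 0.53, adjusted p = 0.181, and -2.83, SE 1.2, adjusted p = 0.299). TRNR, the arginine tRNA between ND3 and ND4L, had 52, 22 and 33 counts in Control and 78, 64 and 112 in Dox (1.09, SE 0.43, adjusted p = 0.276), and 35, 17 and 30 in IFN and 98, 63 and 103 in Dox IFN (1.60, SE 0.43, adjusted p = 0.15). Its doxycycline libraries lay above the reference group in both, while ND3 and ND4L on either side of it lay below. The medians of the 2 strands' tRNAs were not tested against each other.

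The nuclear genes of complex I were put to the same test. Of 37 nuclear subunit genes, 0 were called in either doxycycline comparison by edgeR or by DESeq2, and 2 and 1 had an unadjusted p under 0.05, as had 14.2% and 12.2% of all tested genes. Their median log2 fold changes were -0.11 and -0.02. In Dox the values ran from -0.51 for NDUFA2 (SE 0.19, adjusted p = 0.26) to 1.01 for NDUFV2 (SE 0.62, adjusted p = 0.515), and with the replicate block 3 of 37 were lower in Dox and 0 in Dox IFN, where 7.67% and 6.62% of all tested genes were. Of 18 assembly factors, which help to build the complex, 0 were called by edgeR in either comparison, with 2 and 2 at an unadjusted p under 0.05. DESeq2 called 2 and 2 lower, where it called 2.71% and 2.50% of all tested genes lower. With the replicate block 3 were lower in Dox and 2 in Dox IFN, where 7.67% and 6.62% of all tested genes were.

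Genes that act on mitochondrial RNA and DNA were counted in the same way. Of 18 tested genes for mitochondrial RNA processing and stability, 0 were called by edgeR, and the medians were -0.14 and -0.15. At an unadjusted p under 0.05 there were 2 in Dox and 3 in Dox IFN, where 14.2% and 12.2% of all tested genes were. DESeq2 called 1 lower in each, where it called 2.71% and 2.50% of all tested genes lower. With the replicate block 3 were lower in Dox and 3 in Dox IFN, where 7.67% and 6.62% of all tested genes were. In that fit 1 was higher in Dox, where 986 of all 15828 genes were. Of 14 genes for mitochondrial transcription and DNA maintenance, 0 were called by edgeR or DESeq2, with 0 and 2 at an unadjusted p under 0.05 and medians of -0.03 and 0.06. With the replicate block 1 was higher in Dox and 1 in Dox IFN, where 986 and 610 of all 15828 genes were.

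**Figure D5:**
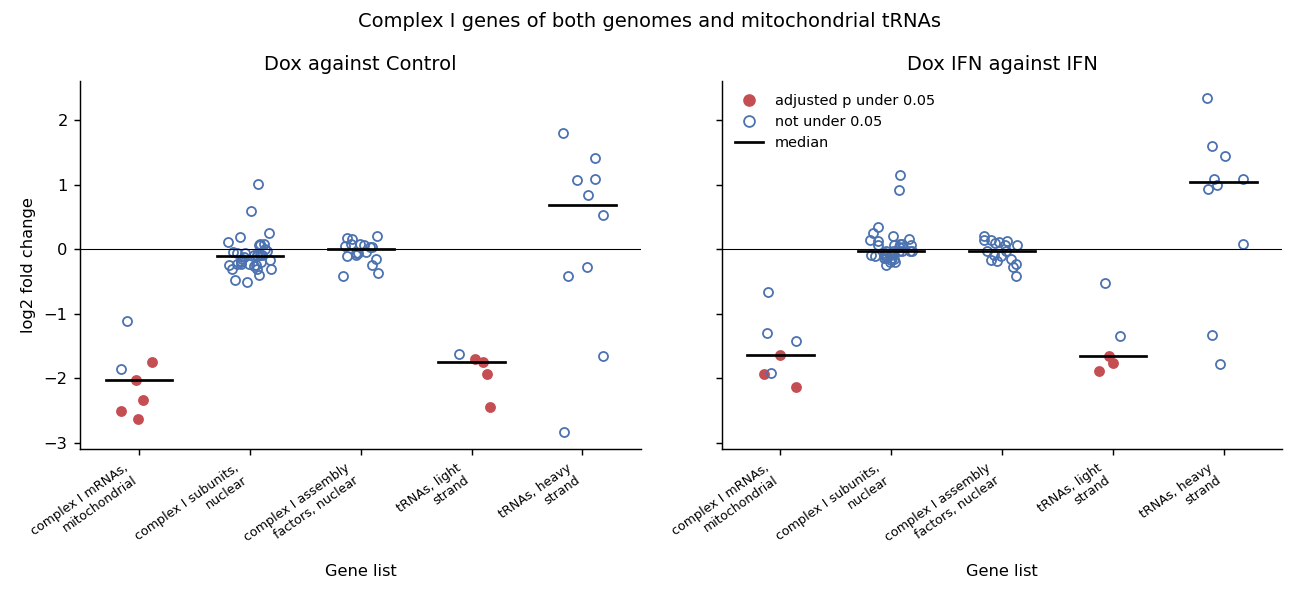
Log2 fold change of each tested gene in 5 lists, for Dox against Control and Dox IFN against IFN, with filled points for an adjusted p under 0.05 and bars for list medians. Medians of the mitochondrial complex I mRNAs are -2.02 and -1.64, those of the 37 nuclear subunit genes -0.11 and -0.02, and those of the light-strand and heavy-strand tRNAs lie on opposite sides of 0. Several of the tRNAs had few counts.

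Nuclear DNA holds many copies of these genes, and reads could be split between a member and its copies. Of 223 table rows named as copies of complex I members, 193 had no count in any library and 3 were tested. The copies of ND1 held 7.77% to 11.6% of the counts of ND1 and its copies together, those of ND2 held 2.5% to 3.09%, and those of the other members at most 0.0688%. MTND1P23, on chromosome 1 from 629062 to 629433, was 98.1% identical to ND1 over 365 bases and had 4322, 3977 and 2559 counts in Control and 1702, 875 and 867 in Dox (-1.82, SE 0.41, adjusted p = 0.0663). MTND2P28, from 629640 to 630683 on the same chromosome, was 98.4% identical to ND2 and had a value of -0.99 (SE 0.43, adjusted p = 0.324). MTND1P8, on chromosome 16 and 75.3% identical to ND1, had 1 to 2 counts in Control and 9 to 16 in Dox (2.60, SE 0.61, adjusted p = 0.0748). The values of MTND1P23 and MTND2P28 are close to those of their mitochondrial counterparts, and the values of ND1 and ND2 remain uncertain by the share of counts that the copies hold.

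Finally, the genes whose pattern over the 12 libraries was most like the members' were listed by Pearson's r of log2(CPM + 0.5). The libraries share their treatments, so the values are a description. ND6 was followed most closely by ND5 (r = 0.988), ND4 (0.988), ND4L (0.987), COX1 (0.979) and TRNP (0.946) on the mitochondrial genome. Among nuclear genes it was TMBIM6 (r = 0.986), PKIA (0.973), MTCO1P12 (0.97), BEX1 (0.97) and MDH1 (0.968), of which MTCO1P12 is itself a copy of a mitochondrial gene. The mean of the 6 heavy-strand members was most like COX1 (r = 0.981), CYTB (0.981), COX3 (0.98), TRNT (0.969) and ND6 (0.968), and among nuclear genes MTND1P23 (0.987), MTCO1P12 (0.972), RACGAP1 (0.969), LDAH (0.968) and MPZL1 (0.965).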

How the data were processed

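RNA sequencing of 12 SK-N-DZ libraries was analysed from the read counts per gene that the authors deposited, which are whole numbers with no normalization. DESeq2 is the tool named in the submitters' processing notes. The aligner, the counter, its strand setting and the library selection are not given in the sources used here. The authors' tables of fold changes and p-values were not used, nor were 18 per-library columns in them whose codes match no sample label.

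Groups came from the labels. Counts were fitted in 1 model of 4 groups with edgeR 4.0.16 in R 4.3.3 (filterByExpr with a minimum count of 10, TMM scaling, quasi-likelihood F test, two-sided), with Benjamini-Hochberg adjustment over 15828 genes and a threshold of 0.05. CPM values are scaled by TMM. Contrasts that share a group, such as Dox and IFN each against Control, are given side by side and were not correlated. Same-numbered libraries deviated together (r = 0.338 to 0.804 in 18 pairs of groups' libraries, against -0.628 to 0.143 in 36 others), so the numbers were taken to pair the samples, from the data and not from a stated batch. Libraries of a group differed by more than sampling noise in all 12 pairs (mean chi-square per gene of 19.8 to 85).

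Alternatives were DESeq2 size factors, library size alone, scaling without mitochondrial genes, no filter, the replicate block, DESeq2 1.42.0, only the groups compared, and leaving out libraries. Fits without all 4 libraries of 1 replicate number, and ND6 ratios to single mRNAs other than ND5, were added after the data were seen. Tested on simulated counts for Dox against Control with 15552 genes tested, the fit found 50 of 99 planted changes of 1 on the log2 scale and 75 of 98 of 2, with 6 false calls. The simulated libraries were independent, without the shared deviation of same-numbered libraries, so these figures may not hold for the real libraries. ND6 ratios were tested by exact permutation in Python 3.11.15. Positions and sequences are from GENCODE release 29 (GRCh38), and identities to copies from pairwise alignment with Biopython 1.88. All 7 members were named in every comparison, along with lists of other mitochondrial and complex I genes described by counts and medians, and the 5 mitochondrial and 5 nuclear genes most like them. The members and lists were chosen with earlier results of these data known.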

Additional observations from a re-analysis of the deposited data

How the results depend on the processing

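The negative direction of all 7 members in both doxycycline comparisons was kept in every fit run. For the number called lower, Dox against Control gave 4 to 7 of 7 over the other settings, and Dox IFN against IFN gave 7 with the replicate block, 5 with DESeq2, 2 with library size alone and 0 with only the groups compared. Leaving out a library gave 1 to 4 and 1 to 6. Leaving out 1 replicate number in every group gave 0 to 1 and 0, and ND6 then had an adjusted p of 0.0472 to 0.0737 (Dox) and 0.0647 to 0.116 (Dox IFN), in fits with fewer libraries. The counts over all genes moved more, and the cause was not tested. In Dox against Control (194 as reported) they were 2200 with the replicate block, 825 with DESeq2, 119 without the filter, 16 with only the groups compared, 42 to 98 without a library and 0 to 100 without a replicate number. In Dox IFN against IFN (106 as reported) they were 1658 with the block, 635 with DESeq2, 0 with only the groups compared, 35 to 77 without a library and 0 to 38 without a replicate number. IFN against Control (350 as reported) gave 953 with the block, 558 with DESeq2, 262 to 314 and 127 to 247. Dox IFN against Dox (273 as reported) gave 706, 442, 210 to 244 and 98 to 215. DESeq2 called 2 interactions. With library size alone 199 genes were higher and 89 lower in Dox (78 and 116 as reported), and 53 and 65 in Dox IFN (16 and 90 as reported).

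Values near 0 changed sign. In IFN against Control, ND4L, ND5 and ND6 were -0.03 with library size alone. Without a library the ranges there were -0.31 to 0.08 (ND1), -0.40 to 0.06 (ND2), -0.13 to 0.16 (ND4), -0.14 to 0.20 (ND4L), -0.10 to 0.12 (ND5) and -0.11 to 0.08 (ND6), and without a replicate number -0.14 to 0.07 (ND4), -0.09 to 0.08 (ND4L), -0.11 to 0.10 (ND5) and -0.15 to 0.09 (ND6). In Dox IFN against Dox, ND3 was -0.01 with the replicate block. Without a library the ranges were -0.59 to 0.78 (ND1), -0.46 to 0.57 (ND2), -0.46 to 0.29 (ND3), -0.09 to 0.89 (ND4), -0.16 to 0.70 (ND4L) and -0.16 to 0.63 (ND5), and without a replicate number -0.37 to 0.72, -0.29 to 0.49 and -0.27 to 0.24 for ND1 to ND3, -0.04 to 0.65 (ND4L) and -0.10 to 0.70 (ND5). The interaction ranged without a library from -0.46 to 0.91 (ND1), -0.29 to 0.74 (ND2), -0.21 to 0.54 (ND3), -0.07 to 0.91 (ND4), -0.16 to 0.69 (ND4L) and -0.17 to 0.62 (ND5), and without a replicate number from -0.28 to 0.86, -0.14 to 0.76, -0.06 to 0.53, -0.02 to 0.85, -0.11 to 0.63 and -0.20 to 0.68 in the same order. The ND6 ratio kept its sign in every alternative and single omission. With doxycycline labels permuted within IFN strata it was past the threshold against the summed mRNAs, but not against ND4L (-0.24) or ND4 (-0.14) alone. That test takes the strata as independent, although same-numbered libraries deviated together across them.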
